A study of Mus musculus with 8 samples.

Results

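The genes described here are 7 genes of cholesterol supply in neonatal mouse lung, namely the synthesis enzymes Hmgcs1, Idi1, Fdft1, Sqle and Lss and the sterol-sensing regulators Srebf2 and Insig1. They are picked by name, and all 7 were found among the 25965 genes of the deposited values and among the 15627 genes tested. The tissue was whole lung of Wfdc2+/+ mice and of Wfdc2GFP/GFP littermates, in which a GFP cassette replaced part of exon 1 and all of exon 2 of Wfdc2 on both alleles in every cell. The mutant line was made from TT2 embryonic stem cells aggregated with ICR morulae, and its neomycin cassette was removed with CAG-Cre. Lungs were taken at E18.5, before birth, and at P1.5, after breathing had begun, and 2 libraries represented each of the 4 groups. The number of animals behind a library was not given in the sources used here, so p-values measure the spread between these libraries. Wfdc2 itself had 8038 and 8791 reads in E18.5 Wfdc2+/+ lungs and 32845 and 10212 in the lungs of that genotype at P1.5. In Wfdc2GFP/GFP lungs it had 0 and 1 reads at E18.5 and 12 and 0 reads at P1.5, so the targeted gene followed the labels in all 8 libraries. Total reads per library ran from 19457658 to 37209356, and each of the 7 genes had at least 199 reads in every library.

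Cells make cholesterol from acetyl-CoA through mevalonate, isoprenoid diphosphates and squalene. HMGCS1 makes the HMG-CoA that enters the mevalonate pathway, IDI1 interconverts the isoprenoid diphosphates, FDFT1 joins farnesyl units into squalene, SQLE adds the epoxide oxygen to squalene and LSS folds the epoxide into the first sterol, lanosterol. SREBF2 encodes SREBP-2, a membrane-bound transcription factor that is released by proteolysis when sterols are low and that switches on most genes of the pathway, its own gene and INSIG1, and INSIG1 retains the SREBP precursor in the endoplasmic reticulum when sterols are high. In the lung, cholesterol is the main neutral lipid of surfactant, which alveolar type II cells store in lamellar bodies and secrete at birth.

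In the deposited values (mm10) the genes are given as whole spans, exons and introns together. Hmgcs1 (119690462 to 119708086) and Idi1 (8885501 to 8892451) lie on chromosome 13, and Sqle (59315077 to 59331192) and Srebf2 (82147266 to 82205376) on chromosome 15. Lss lies on chromosome 10 (76531588 to 76557138) and Insig1 on chromosome 5 (28071363 to 28078662), all 6 on the plus strand, and Fdft1 lies on the minus strand of chromosome 14 (63145153 to 63177793). In GENCODE M21, Sqle and Insig1 overlap no other gene, while Hmgcs1 and Lss each overlap an annotated antisense gene (Gm48342 and 4930483K19Rik), Idi1 overlaps Gm48574, and Srebf2 holds Mir33 and Gm49502 within its span.

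SREBP-2 acts at sterol regulatory elements close to a gene's start, together with the factors NF-Y and Sp1. RefSeq windows of 250 bases before to 50 bases after the start (GRCm38.p6) were found for 5 of the 7 genes, Hmgcs1, Idi1, Lss, Insig1 and Srebf2. Both strands were searched for TCACNCCAC, a form of the sterol regulatory element, for CCAAT, the NF-Y motif (ATTGG on the other strand), and for GGGCGG, a GC box. TCACNCCAC lay in 1.24% of all 32851 windows and in 1 of the 5, that of Hmgcs1, where the match TCACCCCAC began 137 bases before the start on the plus strand. CCAAT lay in 37.4% of all windows and in all 5, with 4 matches in Hmgcs1, 2 in Idi1 and 1 each in Lss, Insig1 and Srebf2. GGGCGG lay in 35.7% of all windows and in all 5, with 5 matches in Srebf2 and 1 in Idi1. A match is a run of letters and was not tested for binding. The upstream parts of 3 windows are printed because they hold the sterol element of the first enzyme and the NF-Y motifs of both regulators, with matches to TCACNCCAC and to CCAAT or ATTGG in capitals, 5′ to 3′ on the plus strand. They span chr13:119690101-119690350 for Hmgcs1, chr5:28071162-28071362 for Insig1 and chr15:82147019-82147265 for Srebf2. For Hmgcs1, the deposited gene begins at 119690462, downstream of the RefSeq start used here.
Hmgcs1: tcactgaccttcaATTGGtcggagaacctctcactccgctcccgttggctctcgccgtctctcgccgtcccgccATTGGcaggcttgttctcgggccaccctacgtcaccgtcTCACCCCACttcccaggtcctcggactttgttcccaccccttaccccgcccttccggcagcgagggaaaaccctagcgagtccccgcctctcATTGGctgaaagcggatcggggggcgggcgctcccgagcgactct
Insig1: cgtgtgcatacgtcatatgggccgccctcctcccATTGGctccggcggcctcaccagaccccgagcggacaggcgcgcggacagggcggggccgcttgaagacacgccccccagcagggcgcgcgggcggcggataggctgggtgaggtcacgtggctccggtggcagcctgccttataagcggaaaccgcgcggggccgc
Srebf2: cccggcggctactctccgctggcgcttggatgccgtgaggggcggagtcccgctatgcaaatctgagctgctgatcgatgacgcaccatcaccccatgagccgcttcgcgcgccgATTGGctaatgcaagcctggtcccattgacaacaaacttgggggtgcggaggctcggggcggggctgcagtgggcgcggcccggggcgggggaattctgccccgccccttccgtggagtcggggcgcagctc

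Before the 7 genes were compared, the 8 libraries were set side by side, and 2 of them stood apart from their group mates. On log2 RPKM centred on the library median, the E18.5 Wfdc2+/+ libraries correlated with each other at r = 0.984 and the P1.5 Wfdc2GFP/GFP libraries at r = 0.963, across the 15627 genes, which are not independent replicates. P1.5 Wfdc2+/+ replicate 2 correlated at 0.917 with its mate and at 0.952 with E18.5 Wfdc2GFP/GFP replicate 2, so it was closest to a library of the earlier stage. E18.5 Wfdc2GFP/GFP replicate 1 correlated at 0.928 with its mate and at 0.943 with E18.5 Wfdc2+/+ replicate 1. The summed RPM (reads of a gene scaled to the library total) of 6 alveolar type II markers, of which Sftpc was the most abundant, were 17568 and 20375 in E18.5 Wfdc2+/+, 8479 and 22484 in E18.5 Wfdc2GFP/GFP, 56354 and 28324 in P1.5 Wfdc2+/+, and 68571 and 50333 in P1.5 Wfdc2GFP/GFP. In both libraries that stood apart, these epithelial markers were lower than in the group mate. The summed RPM of 5 proliferation markers were 576, 372, 1291, 410, 80.5, 343, 113 and 195 in the same order. P1.5 Wfdc2+/+ replicate 2 was the highest P1.5 library for these, and also for fibroblast markers, at 3267 RPM against 522 in its mate. It also held 82.3 RPM of 4 hepatocyte markers, against 1.2 to 7.6 RPM in the other 7 libraries. Because these are bulk libraries, fewer cells of a type and less RNA per cell cannot be told apart. The part of cell makeup in the results below was not tested.

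The summed reads of the 7 genes were followed through the groups, as were the single genes (plot of log2 RPKM in each library). The sums were 643 and 599 RPM in E18.5 Wfdc2+/+ and 504 and 598 RPM in E18.5 Wfdc2GFP/GFP lungs. At P1.5 the sums were 361 and 303 RPM in Wfdc2+/+, and 350 and 626 RPM in Wfdc2GFP/GFP lungs. The 4 E18.5 libraries and P1.5 Wfdc2GFP/GFP replicate 2 were thus at 504 RPM or more, and the other 3 P1.5 libraries were at 361 RPM or less. The 2 Wfdc2GFP/GFP lungs at P1.5 did not share a level, 1 lying within the Wfdc2+/+ range of its stage and 1 within the E18.5 range.

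**Figure D1:**
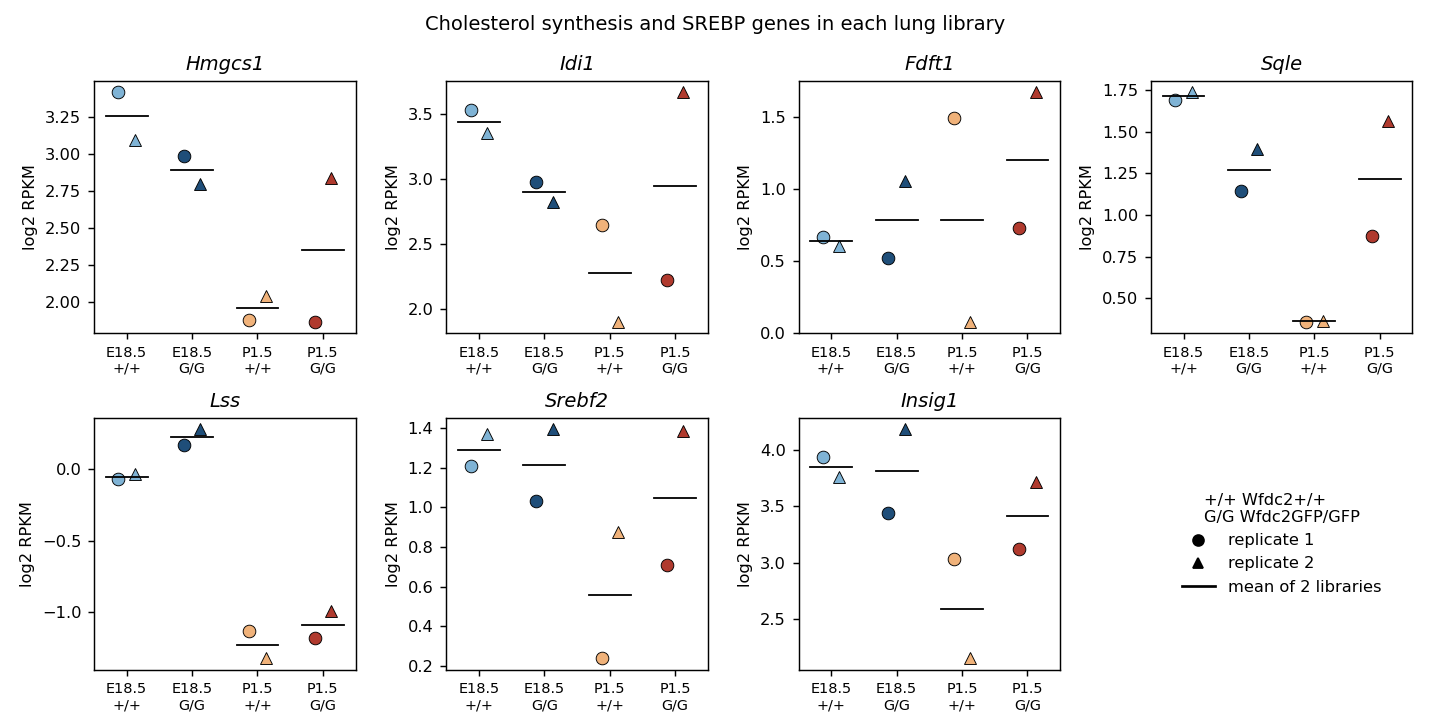
Deposited log2 RPKM (reads per kilobase of whole gene span, scaled to the library total) of the 7 genes in each of the 8 libraries, with 1 panel per gene, circles for replicate 1, triangles for replicate 2 and a line at the group mean; the y axes differ between panels. Sqle shows the P1.5 Wfdc2+/+ libraries together at 0.36 and all 6 others above 0.8, and the P1.5 Wfdc2GFP/GFP triangle is the upper of the pair for all 7 genes.

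Levels were compared between genes as reads per kilobase of exon at equal library totals, since the deposited values divide by the whole gene with its introns. On this exonic scale Hmgcs1 was at 36.8 ± 5.76 (SD, n = 2) and Insig1 at 34.2 ± 2.96 (SD, n = 2) in E18.5 Wfdc2+/+ lungs, and these neighbours overlapped. Idi1 followed at 21.6 ± 1.93 and Srebf2 at 19.8 ± 1.56 (SD, n = 2), which overlapped each other but not the pair above. Fdft1 at 12.0 ± 0.345, Sqle at 9.53 ± 0.211 and Lss at 2.28 ± 0.0386 (SD, n = 2) each lay apart from the neighbour above. Sqle was the sixth and Lss the lowest of the 7 in all 4 groups, without overlap with the neighbours. The upper 5 changed places between groups. In P1.5 Wfdc2+/+ lungs Hmgcs1, Fdft1 and Insig1 stood at 15.0, 14.9 and 14.9, and each of the upper 5 overlapped its neighbour, with Sqle below them at 3.73. In P1.5 Wfdc2GFP/GFP lungs Insig1 was first at 25.8 ± 7.47 and Hmgcs1 next at 20.7 ± 9.44 (SD, n = 2), again overlapping.

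The first comparison asked how these genes differed between E18.5 and P1.5 in lungs with intact Wfdc2. Of the 7 genes, 6 were lower in both P1.5 libraries than in both E18.5 libraries, where 28.2% of all genes tested were so, and their summed reads went from 643 and 599 RPM to 361 and 303 RPM. With limma's moderated test and Benjamini-Hochberg adjustment over all genes, none of the 7 passed an adjusted p of 0.05, where 0.0576% of genes did, 9 in all. At an unadjusted p under 0.05, 5 of the 7 were lower, against 4.93% of all genes lower at that level, and limma's voom on the recovered reads also called 0 of the 7. The median difference of the 7 was -1.17 on the log2 scale, and that of all genes was -0.15. Markers of some cell types were also lower at P1.5, namely 5 of 5 proliferation (median -1.22), 3 of 3 endothelial (-1.15) and 3 of 3 fibroblast markers (-0.91). All club, macrophage, neutrophil and hepatocyte markers were higher, with medians of 1.53, 0.88, 3.61 and 4.62. The part of these shifts in the difference of the 7 genes was not tested.

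Sqle, the epoxidase, was at 1.69 and 1.74 log2 RPKM in E18.5 Wfdc2+/+ lungs and at 0.36 and 0.36 in P1.5 Wfdc2+/+ lungs, from 1791 and 1673 reads before birth and 449 and 403 after. It had the largest difference of the 7, -1.35 (SE 0.33, limma, adjusted p = 0.206), a level 2.55 times lower at P1.5, and both P1.5 libraries gave the same value as deposited, while relative to the library median they were at 1.32 and 0.58. Hmgcs1, which supplies the mevalonate pathway, was at 3.41 and 3.09 and then at 1.88 and 2.04 log2 RPKM. Its difference was -1.29 (SE 0.37, limma, adjusted p = 0.272), with no overlap. Insig1, the SREBP retention factor, was at 3.94 and 3.76 and then at 3.03 and 2.15 log2 RPKM, a difference of -1.26 (SE 0.42, limma, adjusted p = 0.351). Here the lower P1.5 value came from the library that stood apart, and without it the difference was -0.82.

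Lss, the lanosterol cyclase, was at -0.07 and -0.04 and then at -1.13 and -1.32 log2 RPKM, a difference of -1.17 (SE 0.32, limma, adjusted p = 0.251). Idi1, the isomerase, was at 3.53 and 3.35 and then at 2.65 and 1.90 log2 RPKM, a difference of -1.17 (SE 0.49, limma, adjusted p = 0.419) that was -0.79 without P1.5 Wfdc2+/+ replicate 2. Srebf2, the transcription factor, was at 1.21 and 1.37 and then at 0.24 and 0.88 log2 RPKM, a difference of -0.73 (SE 0.37, limma, adjusted p = 0.447) that was -1.05 without that library. Fdft1, the squalene synthase, was the exception, at 0.66 and 0.61 before birth and at 1.49 and 0.08 after, so that its P1.5 libraries lay on either side of the E18.5 values. The 3′ end of Fdft1 overlaps the end of Ctsb, the lysosomal protease cathepsin B, on the other strand. Replicates 1 and 2 of P1.5 Wfdc2+/+ gave Ctsb 170 and 405 RPM and Fdft1 91.9 and 34.4 RPM, while in Wfdc2GFP/GFP lungs replicate 2 was the higher for both genes at both stages. At P1.5 it gave 548 RPM for Ctsb and 104 RPM for Fdft1, against 418 and 54.2 RPM in replicate 1. Whether the counting used strand was not given in the sources used here, and reads of the overlap cannot be told apart without it.

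The direction of the 6 lower genes did not depend on the P1.5 Wfdc2+/+ library that stood apart, but the size of some differences did. Those of Insig1 and Idi1 were smaller without it, and that of Srebf2 was larger. Without P1.5 Wfdc2+/+ replicate 2, 6 of 7 genes were still lower and the median of the 7 was -1.05, while the median of all genes moved to -0.47. When E18.5 Wfdc2GFP/GFP replicate 1 was also left out, limma called 2 of the 7, Lss (adjusted p = 0.0257) and Sqle (adjusted p = 0.0291), both lower, and 5904 of all genes, or 37.8%. In that fit the lone library of a group is assumed to vary like the others, and it was chosen after the data were seen.

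**Figure D2:**
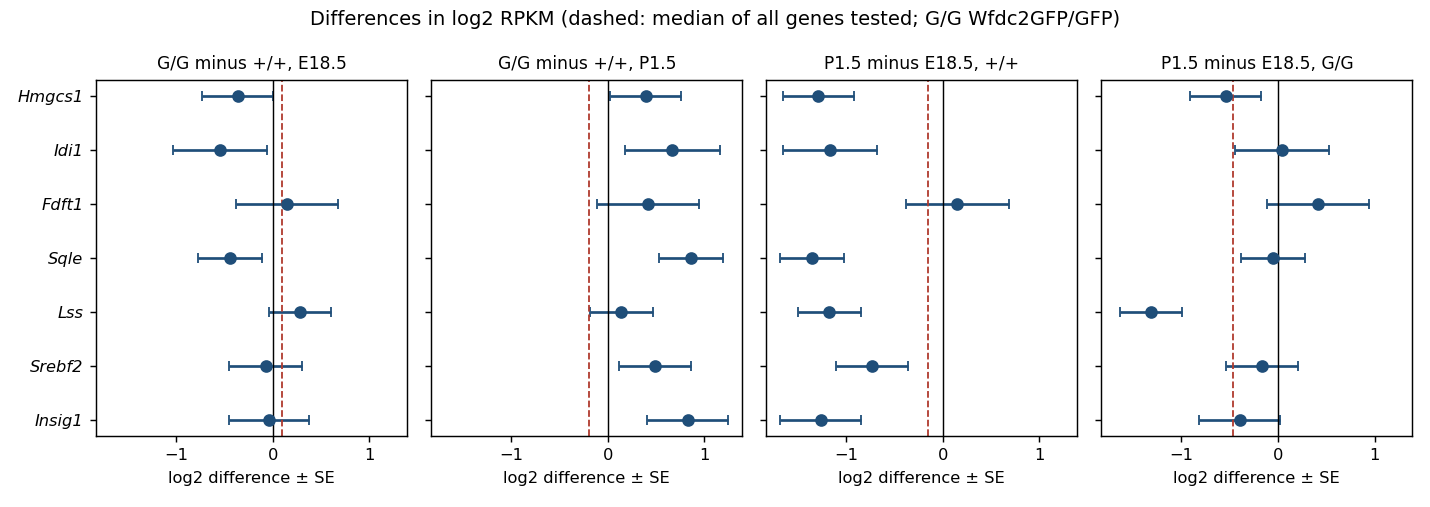
Differences in log2 RPKM between group means (points) with the standard error of the limma fit (bars) for the 7 genes, in 4 comparisons of 2 libraries with 2; the dashed line is the median of all 15627 genes tested and the solid line is 0. In Wfdc2+/+ lungs 6 of 7 points lie left of both lines, and at P1.5 all 7 points lie right of both lines for genotype.

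The same comparison was made in lungs without Wfdc2. There the 7 genes did not share a direction. Lss was lower at P1.5, the P1.5 values of Sqle and Idi1 lay on either side of their E18.5 values, and the median difference of the 7 was -0.16, above the median of all genes at -0.46. Only Lss was lower in both P1.5 libraries than in both E18.5 libraries, where 48.5% of all genes were so. None of the 7 passed the adjusted threshold, where 4.55% of all genes did, 711 in all, and 1 of 7, Lss, was lower at an unadjusted p under 0.05, against 26% of all genes. Lss was at 0.17 and 0.28 log2 RPKM in E18.5 Wfdc2GFP/GFP lungs and at -1.18 and -0.99 in P1.5 Wfdc2GFP/GFP lungs. Its difference was -1.31 (SE 0.32, limma, adjusted p = 0.0549), against -1.17 in Wfdc2+/+ lungs. With both libraries that stood apart left out it was -1.37 (limma, adjusted p = 0.0304), in a fit that called 17.6% of all genes. Without E18.5 Wfdc2GFP/GFP replicate 1 alone it was again -1.37, at an adjusted p of 0.244 (limma), and 0 genes were called.

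Hmgcs1 was at 2.99 and 2.80 and then at 1.87 and 2.84 log2 RPKM, so that replicate 1 lay at the level of the P1.5 Wfdc2+/+ lungs and replicate 2 within the E18.5 range of its genotype. Its difference was -0.54 (SE 0.37, limma, adjusted p = 0.311). Sqle was at 1.15 and 1.40 and then at 0.87 and 1.56 log2 RPKM, a difference of -0.05 (SE 0.33, limma, adjusted p = 0.910). Insig1 was at 3.44 and 4.19 and then at 3.12 and 3.72 log2 RPKM, a difference of -0.40 (SE 0.42, limma, adjusted p = 0.516). The values of these 3 genes overlapped between the stages. Idi1 was at 2.97 and 2.82 and then at 2.22 and 3.67 log2 RPKM. Idi1, Srebf2 and Fdft1 differed by 0.05, -0.16 and 0.42 on the log2 scale, each less than its standard error. Relative to the library median, 6 of the 7 genes were higher at P1.5, Lss being the exception, so the sign for Hmgcs1, Sqle, Insig1 and Srebf2 turned with the scaling. Without P1.5 Wfdc2GFP/GFP replicate 2, all 7 were lower and the median of the 7 was -0.68, against -0.57 for all genes.

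The next comparison asked whether loss of Wfdc2 changed these genes after birth. At P1.5 the mean of all 7 genes was higher in Wfdc2GFP/GFP than in Wfdc2+/+ lungs, with a median difference of 0.49 on the log2 scale, while the median of all genes was -0.20. None passed the adjusted threshold (limma, 0 of 7), where 0.0128% of all genes did, 2 in all, and voom on the reads called 0. Sqle was the only one of the 7 at an unadjusted p under 0.05, against 3.61% of all genes higher at that level. Sqle and Insig1 were higher in both Wfdc2GFP/GFP libraries than in both Wfdc2+/+ libraries, 2 of 7, where 12.6% of all genes were so.

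Sqle was at 0.36 and 0.36 log2 RPKM in P1.5 Wfdc2+/+ lungs and at 0.87 and 1.56 in P1.5 Wfdc2GFP/GFP lungs, or 449 and 403 against 684 and 1394 reads. The difference was 0.86 (SE 0.33, limma, adjusted p = 0.412), a level 1.81 times higher, and it lay between 0.51 and 1.20 when any 1 of the 4 libraries was left out. Insig1 was at 3.03 and 2.15 against 3.12 and 3.72 log2 RPKM, a difference of 0.83 (SE 0.42, limma, adjusted p = 0.521). The gap between the nearest libraries, 3.03 and 3.12, was much smaller than the spread within either group, and without P1.5 Wfdc2+/+ replicate 2 the difference was 0.39. Idi1 was at 2.65 and 1.90 against 2.22 and 3.67 log2 RPKM, a difference of 0.67 (SE 0.49, limma, adjusted p = 0.670) with overlap. Hmgcs1 was at 1.88 and 2.04 against 1.87 and 2.84 log2 RPKM, a difference of 0.39 (SE 0.37, limma, adjusted p = 0.752) in which only replicate 2 of the mutant stood higher. Srebf2 was at 0.24 and 0.88 against 0.71 and 1.39 log2 RPKM, a difference of 0.49 (SE 0.37, limma, adjusted p = 0.685) that was 0.15 without P1.5 Wfdc2GFP/GFP replicate 2 and 0.81 without P1.5 Wfdc2+/+ replicate 2. Fdft1 and Lss differed by 0.42 and 0.14, each less than its standard error.

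The direction shared by the 7 genes at P1.5 did not hold for all of them when either replicate 2 was left out. P1.5 Wfdc2GFP/GFP replicate 2 was the higher of its pair for all 7 genes. Without it, 4 of 7 genes were higher and the median of the 7 was 0.05, against -0.23 for all genes. Hmgcs1, Idi1 and Fdft1 were then at -0.09, -0.05 and -0.05. Without P1.5 Wfdc2+/+ replicate 2, 6 of 7 were higher, with a median of 0.39, against 0.10 for all genes, and Fdft1 was at -0.29. With both libraries that stood apart left out, 0 of the 7 and 678 of all genes were called. Replicate 1 expressed Xist and replicate 2 Ddx3y in all 4 groups, so genotypes were also compared within a replicate number, although the labels do not say that a number pairs libraries. Between the replicate 1 libraries of P1.5, 4 of 7 genes were lower in Wfdc2GFP/GFP, Fdft1 by -0.76 and Idi1 by -0.43, and Sqle was higher by 0.51. Between the replicate 2 libraries all 7 were higher, with a median of 1.20 where that of all genes was -0.41. In P1.5 Wfdc2GFP/GFP replicate 2 the alveolar type II markers, at 50333 RPM, lay within the range of the other P1.5 libraries, and the proliferation, fibroblast and endothelial markers lay between those of the P1.5 Wfdc2+/+ libraries. The summed macrophage markers of this library, 146 RPM over the 3 found of 4 listed genes, led by Csf1r, were the highest of the 8, and so were the erythroid markers, 2764 RPM over the 2 found of 4, led by Hba-a1. By genotype at P1.5, 5 of 6 alveolar type II markers were higher in Wfdc2GFP/GFP lungs, with a median of 0.49, and both erythroid markers were higher, with a median of 0.98. At E18.5 these medians were -0.35 and -1.33. Of the 4 alveolar type I markers, led by Ager, 3 were higher in the mutant at P1.5, with a median of 0.37, and 4 of 4 lower at E18.5, with a median of -0.76. The 3 endothelial markers had medians of 0.03 at P1.5 and -0.24 at E18.5. In these 4 marker groups the median was thus below 0 before birth and above 0 after it. The other marker groups did not have this order. At E18.5 and P1.5 the medians were -0.91 and -0.61 for club, -0.42 and -0.51 for ciliated and -0.44 and -0.20 for neutrophil markers. They were 0.08 and -0.42 for fibroblast, 0.67 and -0.16 for proliferation and 0.45 and -2.77 for hepatocyte markers. For macrophage and cardiac muscle markers they were 0.04 and 0.55, and 1.32 and 0.52. No gene of any marker group was called for genotype at either stage or for the interaction (limma, adjusted p). The part of the marker groups in the difference of the 7 genes was not tested. The 29257021 reads of P1.5 Wfdc2GFP/GFP replicate 2 were the largest total at P1.5.

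Before birth, the genotypes were compared in the same way. At E18.5, Idi1, Sqle and Hmgcs1 were lower in both Wfdc2GFP/GFP libraries than in both Wfdc2+/+ libraries, 3 of 7, where 9.46% of all genes were so, and none passed the adjusted threshold (limma and voom, 0 of 7; 0 at an unadjusted p under 0.05), where 0.0192% of all genes did, 3 in all. Idi1 was at 3.53 and 3.35 against 2.97 and 2.82 log2 RPKM, a difference of -0.54 (SE 0.49). Sqle was at 1.69 and 1.74 against 1.15 and 1.40 log2 RPKM, a difference of -0.44 (SE 0.33). Hmgcs1 was at 3.41 and 3.09 against 2.99 and 2.80 log2 RPKM, a difference of -0.36 (SE 0.37). For these 3 enzymes the direction did not rest on E18.5 Wfdc2GFP/GFP replicate 1, since without it the differences were -0.62, -0.32 and -0.46. Lss was higher in both mutant libraries by 0.28 (SE 0.32), an order that was lost after centring on the library median. Insig1, Srebf2 and Fdft1 differed by -0.04, -0.07 and 0.15, with overlap. The adjusted p of all 7 was 0.9998 (limma).

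A test of interaction asked whether the genotype difference itself changed from E18.5 to P1.5. Its value was above 0 for 6 of 7 genes as deposited and for 7 of 7 relative to the library median, with a median of 0.75 for the 7 and -0.33 for all genes. It was above 0 for 5 of 7, with a median of 0.27, without P1.5 Wfdc2GFP/GFP replicate 2, and for 5 of 7, with a median of 0.49, without E18.5 Wfdc2GFP/GFP replicate 1. Sqle had the largest, 1.30 (SE 0.46, limma, adjusted p = 0.395), with an unadjusted p of 0.0239, and was the only one of the 7 above 0 at that level, against 2.18% of all genes. Idi1 followed at 1.21 (SE 0.69), Insig1 at 0.87 (SE 0.59; 0.05 with both libraries that stood apart left out), Hmgcs1 at 0.75 (SE 0.52), Srebf2 at 0.57 (SE 0.53) and Fdft1 at 0.27 (SE 0.75), and Lss was at -0.14 (SE 0.45). Without P1.5 Wfdc2GFP/GFP replicate 2 the interaction was 0.96 for Sqle, 0.49 for Idi1, 0.57 for Insig1, 0.27 for Hmgcs1, 0.23 for Srebf2 and -0.20 for Fdft1. No gene of the 15627 passed the adjusted threshold for the interaction (0% of genes, with limma and with voom), and 1599 were at an unadjusted p under 0.05. The 4 comparisons share libraries, so the values in the plot of differences are not independent of each other.

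Across the 8 libraries, centred on the library median, the 7 genes varied together to unequal degrees (plot of pairwise correlations). These correlations describe 8 libraries that share stage, genotype and cell makeup. Pearson's r ran from 0.06 to 0.88 over the 21 pairs, with a median of 0.67, and 15 pairs were above 0.5. Sqle and Insig1, an enzyme and the sterol-sensing regulator, were the closest pair, at 0.88, and Sqle and Srebf2 were also at 0.88. Against the mean of the other 6 genes, Insig1 was at 0.95, Sqle at 0.94, Idi1 at 0.89, Hmgcs1 at 0.81 and Srebf2 at 0.74. Lss was at 0.52 and Fdft1 at 0.49, and the pair of them was the least alike, at 0.06. Values of r for Fdft1 and Lss depended on the scale. Without centring, Fdft1 was at -0.14 with Lss, -0.07 with Srebf2 and -0.05 with Hmgcs1, and Lss with Srebf2 was at 0.61. With centring, the last 3 were 0.50, 0.23 and 0.26. The centred mean of the 7 genes was 1.09 in P1.5 Wfdc2+/+ replicate 2, which stood apart, and 1.73 to 2.60 in the other libraries. As deposited, Lss separated the stages in both genotypes, and Fdft1 separated neither the stages nor the genotypes.

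**Figure D3:**
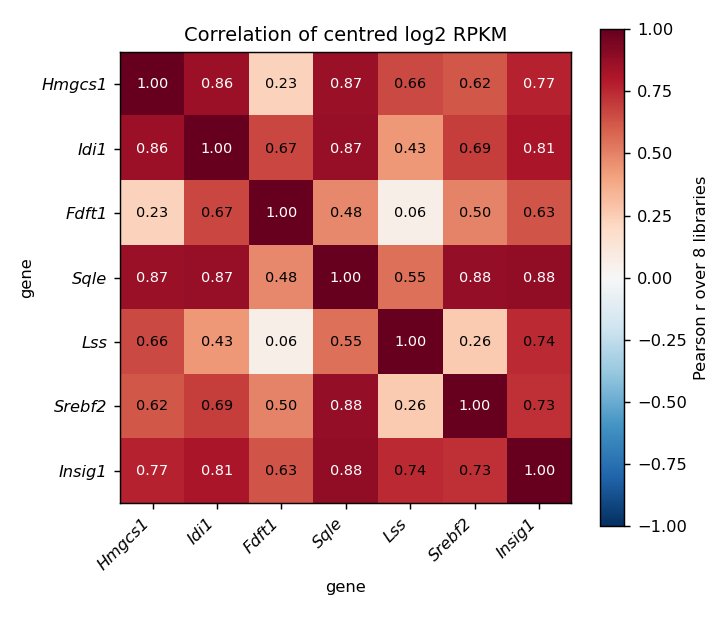
Pearson's r between each pair of the 7 genes over the 8 libraries, on log2 RPKM minus the library median; the colour scale runs from -1 (blue) to 1 (red) and each square carries its value. The squares of Hmgcs1, Idi1, Sqle and Insig1 with each other lie between 0.77 and 0.88, and those of Lss and Fdft1 reach down to 0.06.

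Of the other genes tested, those most like the mean of the 7 on this measure were Mrps27 (r = 0.95), Bid (0.95), Ipmk (0.94), Tuba8, 6330416G13Rik, Trim30d and Dera, the 7 of 15620 with r above 0.9, followed by Tes, Rg9mtd1 and Reg3g (0.89), over 8 libraries. None of these 10 was a listed gene of sterol metabolism. Among the enzymes named here, the closest were Msmo1, a sterol demethylase, at 0.72 and Hsd17b7, a sterol ketone reductase, at 0.69.

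The rest of the pathway was read from lists of the mevalonate steps, the squalene and sterol steps and the SREBP control genes, which held 21 genes beside the 7. None of the 21 was called in any of the comparisons (limma, adjusted p), where 0.0128% of all genes were called for genotype at P1.5, 0.0192% at E18.5, 0.0576% and 4.55% for stage in Wfdc2+/+ and Wfdc2GFP/GFP lungs, and 0% for the interaction, so a count of 0 of 21 lies near these shares. The first steps were the 7 other mevalonate genes. Of these, 5 were higher and 2 lower in Wfdc2GFP/GFP than in Wfdc2+/+ lungs at P1.5, with a median of 0.36. At that stage 38.8% of all genes were higher. In Wfdc2+/+ lungs, 5 of 7 had the higher mean at P1.5, as 42.9% of all genes did, with a median of 0.29. Apart from Pmvk, the genes with the higher mean overlapped between the stages. With 1 library left out, the stage difference went down to -0.55 for Fdps, -0.81 for Mvd and -0.22 for Acat2. Pmvk, which phosphorylates mevalonate phosphate, was at 1.08 and 1.04 log2 RPKM in E18.5 Wfdc2+/+ and at 1.12 and 1.83 in E18.5 Wfdc2GFP/GFP lungs. At P1.5 it was at 5.34 and 1.33 in Wfdc2+/+ and at 5.33 and 5.78 in Wfdc2GFP/GFP lungs. The P1.5 Wfdc2+/+ library that stood apart was thus at the E18.5 level for Pmvk, and the other 3 P1.5 libraries were above 5. Its stage difference in Wfdc2GFP/GFP lungs was 4.09 (SE 1.07, limma, adjusted p = 0.0587), the largest of the listed synthesis genes. Fdps, the farnesyl diphosphate synthase, was at 2.88 and 2.86 in E18.5 Wfdc2+/+ and at 2.02 and 3.36 log2 RPKM in E18.5 Wfdc2GFP/GFP lungs. At P1.5 it was at 3.99 and 2.32 in Wfdc2+/+ and at 3.72 and 3.60 in Wfdc2GFP/GFP lungs. In both groups with a library that stood apart, that library had the lower Fdps value of the pair. Mvd, the decarboxylase, showed the same order of libraries, with 0.13 and 1.58 in E18.5 Wfdc2GFP/GFP and 2.33 and 0.36 log2 RPKM in P1.5 Wfdc2+/+ lungs.

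Beyond lanosterol and the squalene steps, the list held 9 other sterol enzymes. In Wfdc2GFP/GFP against Wfdc2+/+ lungs at P1.5, 7 of 9 were higher, with a median of 0.41, where 38.8% of all genes were higher. Sc5d, the lathosterol desaturase, was at 0.9997 and 0.94 in E18.5 Wfdc2+/+, at 0.90 and 0.67 in E18.5 Wfdc2GFP/GFP, at -0.47 and 0.17 in P1.5 Wfdc2+/+, and at 1.09 and 1.92 log2 RPKM in P1.5 Wfdc2GFP/GFP lungs. The P1.5 groups did not overlap, and the difference of 1.65 (SE 0.39, limma, adjusted p = 0.272) was the largest of the sterol enzymes. Hsd17b7 was at -2.51 and -2.58 against -2.51 and -0.82 log2 RPKM, so that, as for Hmgcs1, replicate 2 of the mutant alone stood higher. Tm7sf2, a sterol reductase, went the other way, at 2.83 and 2.26 against 2.13 and 2.15 log2 RPKM, a difference of -0.41 (SE 0.36, limma, adjusted p = 0.733). In Wfdc2+/+ lungs it was higher at P1.5 than at E18.5 by 1.23 (SE 0.36, limma, adjusted p = 0.282). Cyp51, the lanosterol demethylase, and Ebp, the sterol isomerase, differed by 1.02 and 0.99 between the stages in Wfdc2GFP/GFP lungs (limma, adjusted p = 0.180 and 0.0911), with both P1.5 libraries above both E18.5 libraries. Dhcr7, which makes cholesterol from its dehydro precursor, differed by -1.03 (SE 0.58) between the stages in Wfdc2+/+ lungs, with -2.71 and -0.96 log2 RPKM in the P1.5 libraries.

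**Figure D4:**
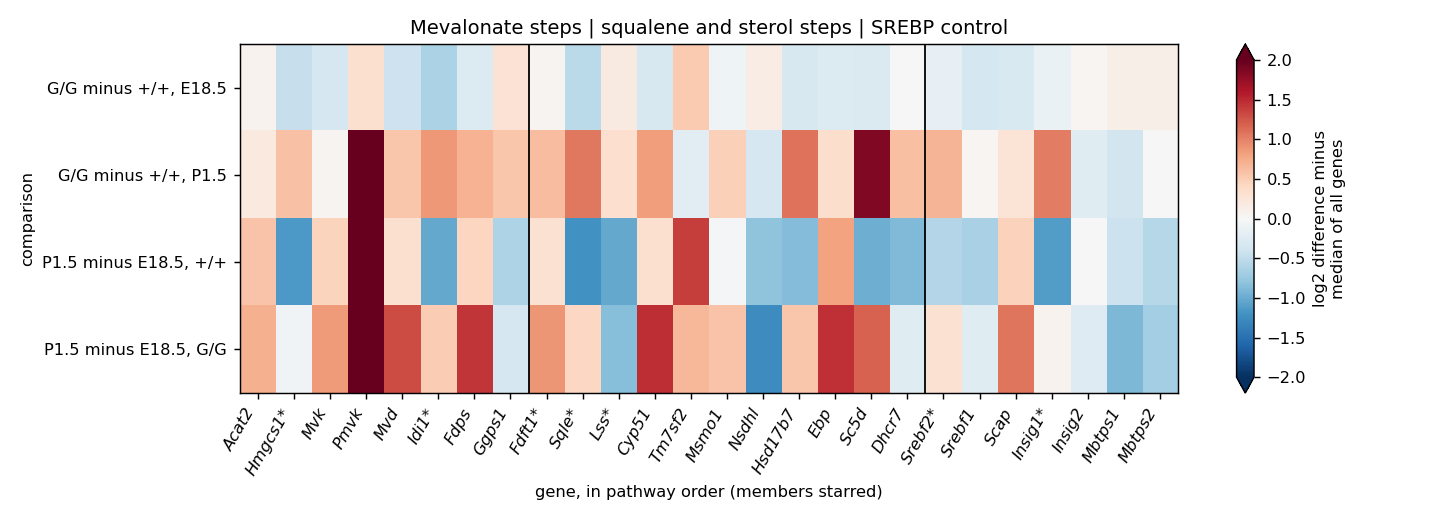
Log2 differences between group means, minus the median difference of all genes tested, for 26 genes in pathway order (columns; the 7 genes described here are starred) and 4 comparisons (rows, 2 libraries against 2); red is higher and blue is lower in the first-named group, and values beyond 2 take the end colours. In the row for genotype at P1.5 the 7 starred genes and most sterol enzymes are red, and in the row for stage in Wfdc2+/+ lungs 6 of the 7 starred genes are blue while several mevalonate genes are red.

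The other genes that control SREBP differed by -0.57 to 0.07 between the genotypes at P1.5. Of these 5 control genes, 1 was higher and 4 were lower in Wfdc2GFP/GFP lungs, with a median of -0.21, next to the -0.20 of all genes. Scap, the escort protein, differed by 0.07 (SE 0.33), Insig2, the second retention factor, by -0.45 (SE 0.44) and Srebf1, the gene of SREBP-1, by -0.16 (SE 0.40), and none of these groups was separated as deposited. The proteases Mbtps1 and Mbtps2 differed by -0.57 (SE 0.43) and -0.21 (SE 0.55). Mbtps1 was at 0.54 and 1.77 log2 RPKM in the P1.5 Wfdc2+/+ libraries, the second being the library that stood apart and close to its E18.5 level of 1.70 and 1.78. Relative to the library median, Mbtps1 was lower in both P1.5 Wfdc2GFP/GFP libraries than in both P1.5 Wfdc2+/+ libraries.

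Genes of cholesterol uptake, efflux and fatty acid synthesis were listed for comparison, and 4 of them were called, all in the stage comparison of Wfdc2GFP/GFP lungs and all lower at P1.5 (limma), where 4.55% of all genes were called. Of 8 uptake and transfer genes tested, 1 was called, Vldlr, a lipoprotein receptor, which was at 2.60 and 1.91 at E18.5 and at 0.37 and 0.62 log2 RPKM at P1.5. Its difference was -1.76 (SE 0.35, limma, adjusted p = 0.0447). Of 8 genes of efflux, esterification and the sterol receptor LXR, 2 were called. Abca1, which exports cholesterol from cells, went from 0.52 and -0.74 to -3.24 and -2.38 log2 RPKM, a difference of -2.70 (SE 0.52, limma, adjusted p = 0.0427). Mylip, a ligase that degrades lipoprotein receptors, went from 0.50 and 1.02 to -1.50 and -0.56 log2 RPKM, a difference of -1.79 (SE 0.40, limma, adjusted p = 0.04997). Of 8 fatty acid genes, 1 was called. Scd2, a fatty acid desaturase, went from 6.22 and 6.96 to 3.89 and 4.47 log2 RPKM, a difference of -2.41 (SE 0.36, limma, adjusted p = 0.0294). In Wfdc2+/+ lungs the same 4 genes were lower at P1.5 without overlap, as 28.2% of all genes were, by -0.97, -0.89, -1.04 and -2.28, and none was called. The 4 calls in Wfdc2GFP/GFP lungs were lost in limma without E18.5 Wfdc2GFP/GFP replicate 1 or without either P1.5 Wfdc2GFP/GFP library. Those fits leave 1 library in a group, and almost no gene of any kind was called in them. In a limma fit to only the 4 libraries of the Wfdc2GFP/GFP stage comparison, all 4 kept the call (adjusted p from 0.0105 to 0.0275). Without E18.5 Wfdc2GFP/GFP replicate 1 the differences were -1.42 for Vldlr, -2.07 for Abca1, -2.05 for Mylip and -2.78 for Scd2. With median centring Mylip (adjusted p = 0.1003) and Scd2 (adjusted p = 0.0551) lost the call, and with voom Vldlr (0.0518), Abca1 (0.0518) and Mylip (0.0538) did. With a replicate block in limma, Vldlr (adjusted p = 0.0639), Abca1 (0.0639) and Mylip (0.0644) lost it as well. The fatty acid genes were lower at P1.5 in 8 of 8 cases in Wfdc2+/+ lungs, with a median of -1.04, where 57.1% of all genes were lower. They were lower in 6 of 8 cases in Wfdc2GFP/GFP lungs, with a median of -1.19, where 63.9% of all genes were lower. At P1.5, 6 of the 8 fatty acid genes and 6 of the 8 efflux genes were lower in Wfdc2GFP/GFP than in Wfdc2+/+ lungs, where 61.2% of all genes were lower. Relative to the library median, 5 of 8 were lower in each list. Whether these lists differed from each other was not tested.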

How the data were processed

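The 8 lung RNA libraries of 4 groups were analysed. The authors trimmed the reads (Trim Galore 0.4.0), mapped them to mm10 (TopHat2 2.1.1, per the labels), counted them per gene in SeqMonk and deposited log2 RPKM, in which the length is the whole gene span and a gene without reads holds 0.9 read. Libraries were directional and run on a HiSeq2500 or GAIIx, and which library ran on which is not given in the sources used here. Reads per gene were recovered from the steps of the values, and all low values with reads (100%) lay within 0.02 of a whole number. At these depths 3 reads stand for 0.0806 to 0.154 RPM.

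Genes averaging 0.05 RPKM or more (15627) entered a limma fit (version 3.58.1, R 4.3.3) on the deposited values, with 1 mean per group, a trended prior, 4 residual degrees of freedom and two-sided p-values adjusted by the Benjamini-Hochberg method over all genes (threshold 0.05). The fit was also run on simulated data, with larger changes than the differences of the 7 genes and no library that stood apart. How it performs on differences of their size was not tested. Same-numbered libraries were not stated to be paired, so no block was used. Exonic lengths were taken from GENCODE M21, and all 53 listed genes were found. Named genes were the 7 genes, listed genes called in any comparison or otherwise the 3 of a list with the largest difference relative to all genes, and the 10 genes most alike over the 8 libraries. Msmo1 and Ctsb were named after their values were seen. The 7 genes are named by the rule with no value in it, and they and the lists were chosen with earlier results of these data known. Some genes that the rule picked are counted in their lists and not reported here. Other settings tried were another offset (0.1 or 1 RPKM), another filter (none, or a mean of 0.5 RPKM), quantile normalization and median centring, other priors, fits to 4 libraries, a replicate block, voom, and libraries left out. Python 3.11.15, pandas 2.3.3 and matplotlib 3.10.9 made the summaries and figures.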

Additional observations from a re-analysis of the deposited data

Results flagged for a closer look

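Of the 7 genes and the listed genes reported here, 3 had genotype differences of opposite sign at the 2 stages with no overlap between genotypes at either stage, and the interaction that tests this passed the adjusted threshold for none of them (limma). Of all genes, 9.46% were lower in both Wfdc2GFP/GFP libraries at E18.5 and 12.6% were higher in both at P1.5. The share of all genes with a crossed order is not given here, so whether 3 lies above it is not known. Sqle was lower in both Wfdc2GFP/GFP libraries at E18.5 and higher in both at P1.5, and its interaction was 1.30 on the log2 scale (adjusted p = 0.395). Sc5d, the lathosterol desaturase, had the same order, with an interaction of 1.84 (adjusted p = 0.322). Tm7sf2, a sterol reductase, was higher in the mutant at E18.5 and lower at P1.5, with an interaction of -1.02 (adjusted p = 0.546). This order of Tm7sf2 held only as deposited. Relative to the library median its genotypes overlapped at both stages, with differences of 0.41 at E18.5 and -0.20 at P1.5. No group held enough libraries for a check of outlying values.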

How the results depend on the processing

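No one of the 7 genes was called by limma in any comparison as reported or under any alternative except the one with both libraries that stood apart left out (chosen after seeing the data), where 2 were called for stage in Wfdc2+/+ lungs and 1 for stage in Wfdc2GFP/GFP lungs. Of 35 gene differences, 20 kept their direction under all alternatives run, among them 6 of 7 for stage in Wfdc2+/+ lungs, and 15 turned under at least 1. Under median centring, with or without the replicate block, the stage difference in Wfdc2GFP/GFP lungs became 0.14 for Hmgcs1, 0.62 for Sqle, 0.28 for Insig1 and 0.51 for Srebf2, Fdft1 at E18.5 became -0.060 and the interaction of Lss became 0.27. Under quantile normalization the stage difference in Wfdc2GFP/GFP lungs became 0.28 for Sqle, -0.080 for Idi1 and 0.20 for Srebf2, Fdft1 at E18.5 became -0.082 and the interaction of Lss became 0.35. With both libraries that stood apart left out, Fdft1 became -0.29 at P1.5 and -0.71 for the interaction, and Insig1 and Srebf2 became 0.33 and 0.10 at E18.5. The cause was not tested.

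With 1 library left out, genotype at P1.5 ran from -0.092 to 0.87 for Hmgcs1, from -0.055 to 1.39 for Idi1 and from -0.29 to 1.12 for Fdft1. Each turned without P1.5 Wfdc2GFP/GFP replicate 2, and Fdft1 also turned without P1.5 Wfdc2+/+ replicate 2. Genotype at E18.5 ran from -0.12 to 0.42 for Fdft1, from -0.41 to 0.33 for Insig1 and from -0.25 to 0.10 for Srebf2. Stage in Wfdc2GFP/GFP ran from -0.68 to 0.77 for Idi1, from -0.40 to 0.29 for Sqle, from -0.50 to 0.17 for Srebf2 and from -0.054 to 0.89 for Fdft1. Fdft1 ran from -0.56 to 0.86 for stage in Wfdc2+/+ and from -0.44 to 0.97 for the interaction.

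The number of all genes called moved widely. For stage in Wfdc2GFP/GFP lungs it was 711 as reported, 1279 with median centring, 237 with a pseudocount of 1 RPKM, 129 with voom, 3036 in a fit to its 4 libraries, and from 0 (without E18.5 Wfdc2GFP/GFP replicate 1 or P1.5 Wfdc2GFP/GFP replicate 1) to 2449 (without E18.5 Wfdc2GFP/GFP replicate 2). For stage in Wfdc2+/+ lungs it was 9, from 0 to 52 under other settings, and 2166 without P1.5 Wfdc2+/+ replicate 2. For genotype at P1.5 it was 2, and 21 with no filter. It was 0 there with median centring, quantile normalization, a fit to the 4 libraries, the replicate block or voom. For genotype at E18.5 it was 3, from 0 to 22 under other settings. With both libraries that stood apart left out, the counts were 2744, 5904, 678 and 0 in this order, and 3 for the interaction, against 0 as reported. The replicate numbers were not shown to pair the libraries. Deviations of same-numbered libraries correlated at 0.23 at E18.5 and 0.21 at P1.5, and replicate 1 expressed Xist and replicate 2 Ddx3y in all 4 groups. The replicate block gave 125 calls for stage in Wfdc2GFP/GFP and 0 for the other comparisons, and called none of the 7 genes and, of the 4 listed genes called, Scd2 alone (adjusted p = 0.0334). Each of the 7 genes had at least 199 reads in every library, and each group mean rests on 2 libraries.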
